A study of Mus musculus with 14 samples.

Results

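Chemokines are small secreted proteins that guide the migration of white blood cells, and 8 of them were followed here in mouse liver across 3 treatments. The 8 genes were Cxcl1, Cxcl9, Cxcl10, Cxcl12, Cxcl13, Ccl2, Ccl6 and Ccl9, of 12394 genes named by probe sets with 1 symbol. All probe sets whose platform symbol names any of these genes were taken, which gave 12 of the 22690 probe sets on the array. Cxcl12, Cxcl13, Ccl6 and Ccl9 had 2 probe sets each and the other genes had 1. Within these genes, probe sets were taken by symbol and not by their signal.

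Total RNA of liver from C57BL/6J mice with diet-induced obesity had been hybridised to 14 Affymetrix expression arrays of the 1-colour kind, 1 per sample. Livers of 5 samples had received an adenovirus that carries a short hairpin RNA (shRNA) against Jnk1. This hairpin lowers messenger RNA of Mapk8, the gene of the stress-activated kinase JNK1. Livers of 4 samples had received an adenovirus with an shRNA against green fluorescent protein (GFP), a target that mice lack, and 5 samples were treated with vehicle and no virus. All groups shared the strain and the obesity, and no lean liver was included. The labels give neither the virus dose, the time after treatment, the age of the mice nor a promoter that would limit the virus to a given liver cell type. They number the samples as replicates (the GFP group as 1, 2, 3 and 5) without saying that each is a separate mouse, so the p-values here reflect only how these samples scatter, which may be technical.

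The labels were checked on the targeted gene. Mapk8 lay between 58.8 and 82.2 intensity units on the Jnk1 shRNA arrays, between 159 and 182 on the GFP shRNA arrays and between 149 and 186 on the vehicle arrays, and it fell by 1.31 ± 0.11 on the log2 scale against GFP shRNA (SE, adjusted p = 3.5e-07 in limma). A second Mapk8 probe set fell by 1.12 ± 0.22 and the third gave -0.12 ± 0.14 (limma, adjusted p = 0.00082 and 0.561). GFP shRNA array 2 differed from the rest, with a deposited median of 58.3 against 41.8 to 50.5 on the other 13 arrays and a mean correlation with its own group of 0.929. The 18 bacterial spike-in probe sets averaged 8.36 ± 0.32 on the 5 Jnk1 shRNA arrays, 8.91 ± 0.08 on the 4 GFP shRNA arrays and 8.91 ± 0.10 on the 5 vehicle arrays (log2, SD). The highest Jnk1 shRNA array, at 8.76, lay under the lowest vehicle array (8.77) and the lowest GFP shRNA array (8.83). Spike-in level and the Jnk1 shRNA group are thus confounded. A call lost in a fit that holds this level cannot be assigned to either. Hepatocyte markers were high throughout, with a summed intensity of 39931 to 41862 with Jnk1 shRNA, 43608 to 45901 with GFP shRNA and 44171 to 47983 with vehicle. Of 12 hepatocyte markers, 7 fell with Jnk1 shRNA against GFP shRNA, 9 fell with Jnk1 shRNA against vehicle and 1 fell with GFP shRNA against vehicle, and none rose. Among all 13576 tested probe sets 15.8%, 18.7% and 0.530% fell in these comparisons. The hepatocyte count against GFP shRNA was 1 under median scaling, 4 with no intensity trend and 3 with the spike-in level in the fit.

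Chemokines bind G protein-coupled receptors on white blood cells and set up gradients along which these cells enter tissue. Some, such as Cxcl12, are made constantly by resident cells, while others are switched on by interferons or by signals that reach the transcription factors NF-kB and AP-1. JNK kinases phosphorylate c-Jun, a subunit of AP-1, and in liver chemokines are produced by hepatocytes, Kupffer cells, endothelial cells and stellate cells. In whole liver RNA, fewer cells of a producing type and less RNA per cell cannot be told apart.

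Values below are quantile-normalized intensities in the order of the replicate numbers, and differences are on the log2 scale with the standard error (SE) from limma. The words rose and fell are kept for probe sets with an adjusted p under 0.05, with adjustment over all 13576 that were tested. Without detection calls, background was described by 102 probe sets of smell and taste receptors and hair keratin-associated proteins. Their 95th percentile on each array, 27.8 to 55.4 over the 14 arrays, served as the bound under which a signal was called near background. By this bound 8 of the 12 chemokine probe sets were above background on every array. The others were both Cxcl13 probe sets, Ccl2 and the weaker Ccl6 probe set in part, as described with each gene.

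Between Jnk1 shRNA and GFP shRNA livers, 5 of the 11 chemokine probe sets that could be tested changed: 1 Cxcl12 probe set rose, and Cxcl9, both Ccl9 probe sets and 1 of the Ccl6 probe sets fell. This is to be read against 33.1% of all tested probe sets called in the same comparison (17.3% higher and 15.8% lower with Jnk1 shRNA). The median difference of the 11 was -0.25, against -0.01 over all tested probe sets. On 3 of the 12 probe sets the groups did not overlap, against 28.1% of all tested probe sets. The 6 that did not pass were those of Cxcl1, Cxcl10 and Ccl2, the other Cxcl12 and Ccl6 probe sets and the tested Cxcl13 probe set. In place of 5, the number called was 3 without GFP array 2, and also 3 without Jnk1 array 1, 2, 3 or 5.

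Against vehicle, 6 of 11 chemokine probe sets changed in Jnk1 shRNA livers, where 37.6% of all tested probe sets did (18.9% higher and 18.7% lower). Cxcl12 on 1 probe set and Ccl6 on 1 probe set rose, while the other Cxcl12 probe set, Cxcl13 and both Ccl9 probe sets fell. The median difference was 0.18, against -0.02 over all tested probe sets, and the groups did not overlap on 3 of 12 chemokine probe sets and on 27.7% of all.

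In GFP shRNA livers against vehicle, 3 of 11 chemokine probe sets changed, where 2.58% of all tested probe sets did (2.05% higher and 0.530% lower). Cxcl9 and 1 of the Ccl6 probe sets rose and 1 of the Cxcl12 probe sets fell. The median difference was 0.05, against -0.02 over all, and the groups did not overlap on 4 of 12 chemokine probe sets and on 6.30% of all. The 3 comparisons share arrays in pairs, so their counts are not independent of each other.

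**Figure D1:**
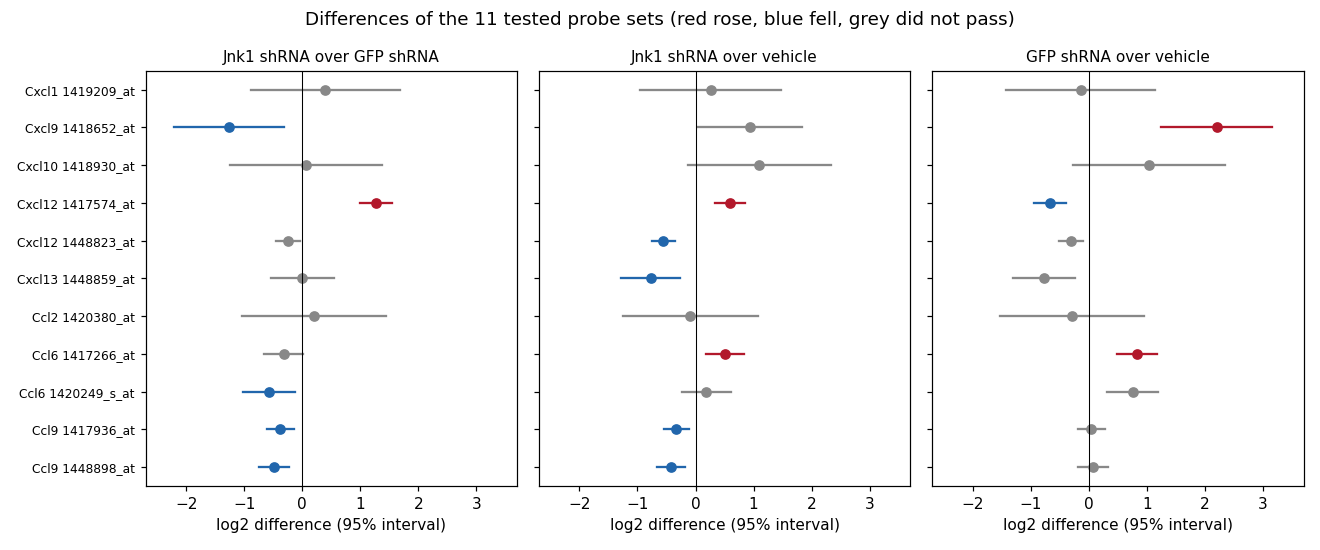
Log2 difference of each tested chemokine probe set (point) with its 95% interval from limma (line) for Jnk1 shRNA over GFP shRNA, Jnk1 shRNA over vehicle and GFP shRNA over vehicle. Red points rose, blue points fell and grey points did not pass at an adjusted p under 0.05; the 2 Cxcl12 probe sets lie on opposite sides of 0 for Jnk1 shRNA over vehicle.

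Cxcl9 and Cxcl10 are ligands of Cxcr3, a receptor on activated T cells and NK cells, and are known as products of interferon signalling, Cxcl9 mainly of interferon-gamma. Their genes lie close together on mouse chromosome 5 with 1 other protein-coding gene, Art3, starting between them. Because interferon and NF-kB sites are the known inputs of this pair, the 250 bases before each RefSeq start are shown here from assembly GRCm38.p6, 5′ to 3′ on the gene's strand. Capitals mark the matches that were searched for on both strands, namely ISRE-like (an interferon response element: GAAA, any 2 bases, GAAA), GAS-like TTCNNNGAA (a STAT site), NF-kB by its degenerate consensus, and AP-1 as TGACTCA or TGAGTCA.
Cxcl9 (chr5:92328080-92328329, minus strand): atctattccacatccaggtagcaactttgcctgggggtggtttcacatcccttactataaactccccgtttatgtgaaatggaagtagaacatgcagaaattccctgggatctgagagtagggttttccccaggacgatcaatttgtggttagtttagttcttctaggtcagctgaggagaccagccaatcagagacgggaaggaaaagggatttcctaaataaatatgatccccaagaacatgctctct
Cxcl10 (chr5:92348890-92349139, minus strand): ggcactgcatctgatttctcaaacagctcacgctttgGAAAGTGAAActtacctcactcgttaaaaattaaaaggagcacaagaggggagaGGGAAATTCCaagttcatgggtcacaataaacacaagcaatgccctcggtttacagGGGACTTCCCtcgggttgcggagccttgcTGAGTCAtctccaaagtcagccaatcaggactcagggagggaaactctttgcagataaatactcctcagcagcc
In these letters, Cxcl10 held the ISRE-like match with its first base 213 bases before the start, NF-kB matches at 159 and 103 bases and an AP-1 match at 74 bases before it. Cxcl9 held none of the 4 in the bases shown, and an AP-1 match began 31 bases after its start. A site whose letters depart from these patterns goes unmarked, so this does not mean that Cxcl9 lacks interferon or NF-kB sites. Within 300-base windows that also take in 50 bases from the start on, an ISRE-like match stood in 3.44%, a GAS-like match in 8.3%, an NF-kB match in 4.51% and an AP-1 match in 5.2% of 32851 mouse windows. Of the 7 chemokine genes with a window, 3 held an NF-kB match, namely Cxcl1, Cxcl10 and Ccl9. Cxcl12, Cxcl13 and Ccl6 held none of the 4 motifs. A match describes letters and not binding.

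Cxcl9 was lowest in livers without virus. Its intensity was 169, 152, 193, 147 and 139 with Jnk1 shRNA, 193, 1638, 287 and 233 with GFP shRNA, and 124, 64.5, 97.3, 57.3 and 87.7 with vehicle. Every virus-treated liver lay above every vehicle liver, and GFP array 2 lay far above all the others. The highest Jnk1 shRNA array and the lowest GFP shRNA array shared the rounded value of 193, and otherwise the Jnk1 shRNA arrays were the lower.

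Cxcl9 rose with GFP shRNA over vehicle by 2.20 ± 0.45, or 4.60-fold (SE, limma, adjusted p = 0.0131). It fell with Jnk1 shRNA against GFP shRNA by 1.26 ± 0.45, or 2.40-fold lower (adjusted p = 0.0411 in limma). With Jnk1 shRNA over vehicle the difference was 0.94 ± 0.42 and missed the threshold (limma, adjusted p = 0.0953). Array 2 of the GFP group set much of this: without it the difference with GFP shRNA over vehicle was 1.52 (adjusted p = 0.00136), that with Jnk1 shRNA against GFP shRNA was -0.57 and no longer passed (adjusted p = 0.0594), and that with Jnk1 shRNA over vehicle was 0.95 and passed (limma, adjusted p = 0.000828). The call against GFP shRNA was also lost without any single Jnk1 shRNA array, at differences of -1.33 to -1.21 and adjusted p of 0.0541 to 0.0761 in limma. With the replicate number as a block that difference was -1.18 (limma, adjusted p = 0.0816), while a fit that holds the spike-in level gave -1.65 (adjusted p = 0.137). It also missed the threshold with no filter, no intensity trend and 2-group fits (limma, adjusted p = 0.0829, 0.0599 and 0.0651). The difference with Jnk1 shRNA over vehicle passed under median scaling (1.02), array weights (0.91) and 2-group fits (0.94), at adjusted p of 0.0336, 0.0151 and 0.00152 in limma. The rise with GFP shRNA over vehicle missed the threshold when only those 2 groups were fitted (limma, adjusted p = 0.0684).

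Cxcl10 did not pass in any comparison. It had 253, 369, 423, 696 and 550 with Jnk1 shRNA, 230, 1567, 214 and 383 with GFP shRNA, and 269, 51.2, 601, 163 and 247 with vehicle. All 3 groups overlapped, with the highest value on GFP array 2 and the lowest on vehicle array 2. The differences were 0.06 ± 0.62 for Jnk1 shRNA over GFP shRNA, 1.10 ± 0.58 for Jnk1 shRNA over vehicle and 1.04 ± 0.62 for GFP shRNA over vehicle (limma, adjusted p = 0.951, 0.153 and 0.448). The interval of the first, -1.25 to 1.37, leaves room for a change of either sign. Without vehicle array 3 the difference over vehicle with Jnk1 shRNA was 1.49 and passed (limma, adjusted p = 0.0487). Without GFP array 2 the differences were 0.70 for Jnk1 shRNA over GFP shRNA and 0.41 for GFP shRNA over vehicle, and neither passed.

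**Figure D2:**
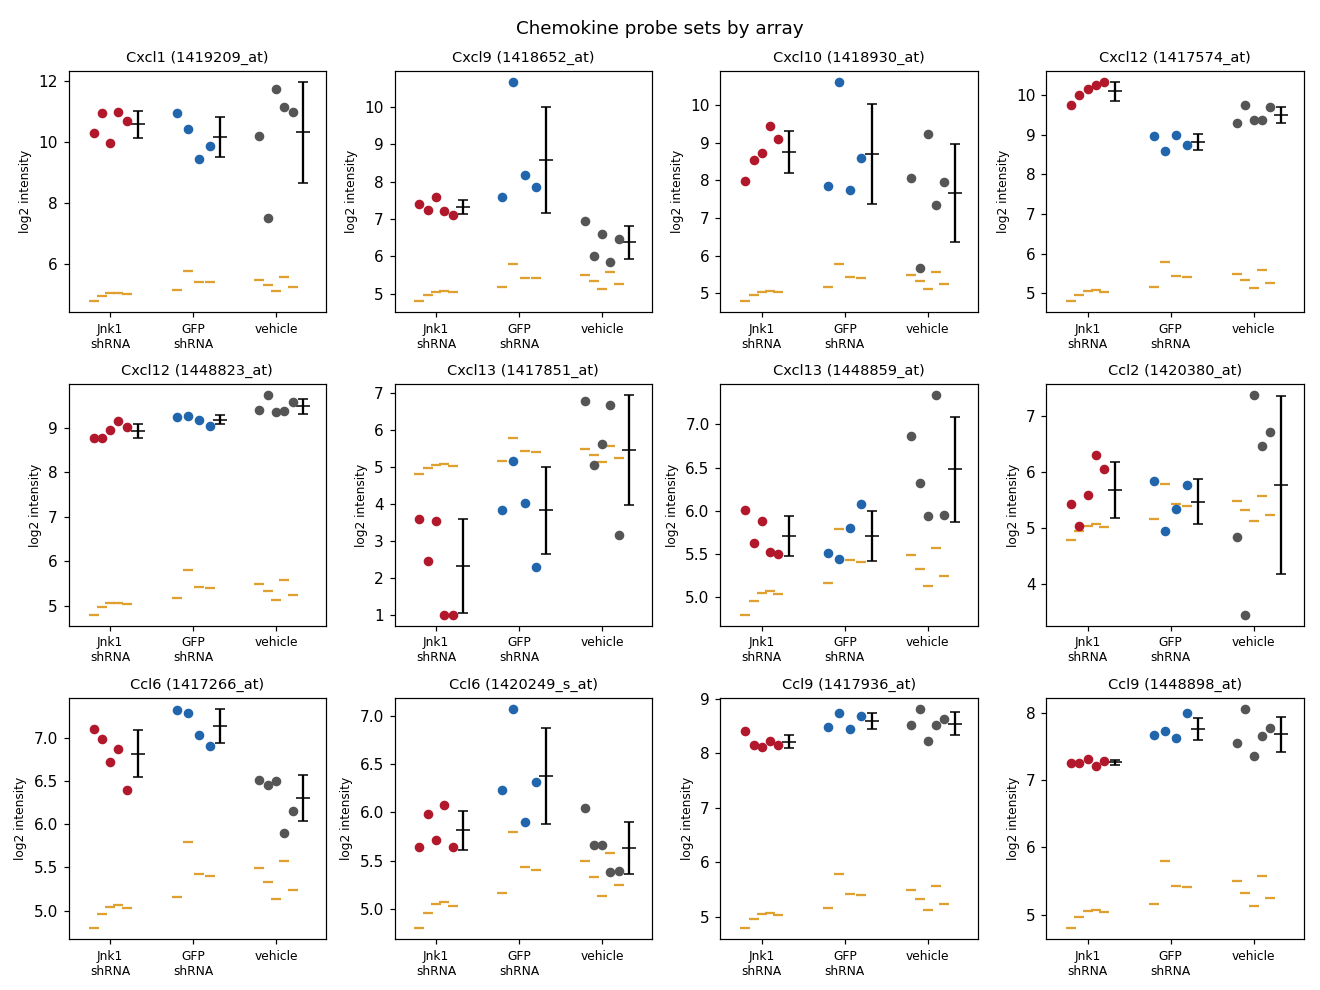
Log2 intensity of each of the 12 chemokine probe sets on every array, with Jnk1 shRNA in red, GFP shRNA in blue and vehicle in grey, in replicate order; black marks give the group mean and its SD, and orange dashes the background bound of that array. Cxcl9 lies higher on all 9 virus arrays than on the 5 vehicle arrays, and Cxcl13 1417851_at lies under the bound on all Jnk1 shRNA and GFP shRNA arrays.

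The receptor of this pair, Cxcr3, did not pass in any comparison (-0.07 for Jnk1 shRNA over GFP shRNA, 0.29 for Jnk1 shRNA over vehicle and 0.36 for GFP shRNA over vehicle). Genes known to be induced by interferon-gamma, a list of 14 of which 9 were tested, ordered the groups as Cxcl9 did. Of the 9, 7 fell with Jnk1 shRNA against GFP shRNA, 7 rose with Jnk1 shRNA over vehicle and 8 rose with GFP shRNA over vehicle, with no call in the opposite direction. With the spike-in level in the fit the first count was 4 and the second 5. The medians were -0.92, 0.88 and 1.74. Among all tested probe sets 15.8% fell with Jnk1 shRNA against GFP shRNA, 18.9% rose with Jnk1 shRNA over vehicle and 2.05% rose with GFP shRNA over vehicle. Gbp2, a guanylate-binding protein of interferon-gamma responses, fell by 1.36 ± 0.40 with Jnk1 shRNA against GFP shRNA (limma, adjusted p = 0.0162) and rose by 2.85 ± 0.40 with GFP shRNA over vehicle (adjusted p = 0.000662), where its vehicle mean of 37.5 lay within the range of the background bounds. Ifi47, an interferon-induced GTPase, fell by 1.46 ± 0.19 with Jnk1 shRNA against GFP shRNA (limma, adjusted p = 3.19e-05). Ifng itself was near background on all arrays.

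Genes known for type I interferon responses gave another order. Of 9 tested from a list of 15, 2 rose and 0 fell with Jnk1 shRNA over GFP shRNA, 9 rose with Jnk1 shRNA over vehicle and 8 rose with GFP shRNA over vehicle, with medians of 0.52, 1.92 and 1.48. The first count was 6 without GFP array 2 and 4 without vehicle array 5, and over the other alternatives it lay between 1 (with the spike-in level in the fit) and 6 (median scaling or array weights). Among all tested probe sets 17.3%, 18.9% and 2.05% rose, in the same order of comparisons. Oasl2, counted over vehicle for both viruses, had a vehicle mean of 25.9, under every vehicle background bound. It passed the filter through the virus groups, so its rise is set against a background reading. Rsad2, an antiviral enzyme, rose with Jnk1 shRNA by 1.93 ± 0.34 over GFP shRNA (limma, adjusted p = 0.000352) and by 3.78 ± 0.32 over vehicle (adjusted p = 1.7e-07). Bst2, which tethers virus particles to the cell surface, rose by 0.58 ± 0.11 over GFP shRNA and by 1.42 ± 0.11 over vehicle (limma, adjusted p = 0.000878 and 4.65e-08).

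Cxcl12, the ligand of Cxcr4 and Ackr3 that retains blood stem cells and lymphocytes in tissue, gave answers that differed between its 2 probe sets. With Jnk1 shRNA over vehicle 1 rose and the other fell, while with GFP shRNA both were lower than with vehicle. Probe set 1417574_at had 859, 1019, 1133, 1223 and 1297 with Jnk1 shRNA, 505, 385, 513 and 426 with GFP shRNA, and 633, 865, 666, 660 and 829 with vehicle. Jnk1 shRNA arrays were the highest and GFP shRNA arrays the lowest, and the only overlap was between Jnk1 array 1 and vehicle array 2. This probe set rose by 1.27 ± 0.13, or 2.41-fold, with Jnk1 shRNA over GFP shRNA (limma, adjusted p = 2.54e-06). It rose by 0.60 ± 0.12, or 1.51-fold, with Jnk1 shRNA over vehicle (limma, adjusted p = 0.00109). With GFP shRNA it fell by 0.67 ± 0.13 against vehicle, or 1.60-fold lower (limma, adjusted p = 0.00909). These 3 calls held under every alternative run.

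Probe set 1448823_at had 439, 435, 494, 564 and 516 with Jnk1 shRNA, 607, 610, 579 and 523 with GFP shRNA, and 673, 848, 649, 660 and 768 with vehicle. Here vehicle arrays were above all virus arrays, and only Jnk1 array 4 reached above the lowest GFP shRNA array. It fell by 0.55 ± 0.09 with Jnk1 shRNA against vehicle, or 1.47-fold lower (limma, adjusted p = 0.000178). Against GFP shRNA the difference with Jnk1 shRNA was -0.25 ± 0.10 and missed the threshold (limma, adjusted p = 0.0632). It passed without vehicle array 2 (-0.25, adjusted p = 0.0434), GFP array 5 (-0.30, adjusted p = 0.0467) or Jnk1 array 4 (-0.30, adjusted p = 0.031). With GFP shRNA over vehicle it was -0.31 ± 0.10 (limma, adjusted p = 0.127), though the groups did not overlap.

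The disagreement was measured as the log2 value of 1417574_at minus that of 1448823_at on each array, since levels of different probe sets cannot be compared but their change together can. This was 0.97, 1.23, 1.20, 1.12 and 1.33 with Jnk1 shRNA, -0.26, -0.66, -0.17 and -0.29 with GFP shRNA, and -0.09, 0.03, 0.04, 0.00 and 0.11 with vehicle. No 2 groups overlapped. The mean differed by 1.52 between Jnk1 shRNA and GFP shRNA, by 1.15 between Jnk1 shRNA and vehicle and by -0.37 between GFP shRNA and vehicle. Each difference gave an exact two-sided permutation p = 0.00794, the smallest these group sizes allow, and the same value after adjustment over the 3. The measure was chosen after these same arrays had shown the 2 probe sets to disagree. Its p therefore describes these arrays and is no independent support. Over left-out arrays the differences ranged from 1.42 to 1.58, from 1.11 to 1.21 and from -0.43 to -0.26, with exact p up to 0.0286. RefSeq lists 3 curated Cxcl12 transcripts and 1 for each of the other 7 chemokines. The transcript parts that these probes match were not analysed here, so neither can be called the level of the gene.

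**Figure D3:**
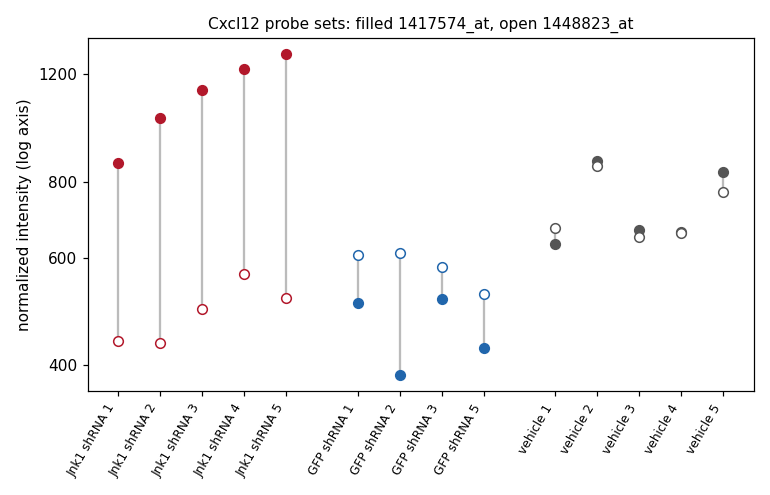
Normalized intensity (log axis) of the 2 Cxcl12 probe sets on each array, filled circles for 1417574_at and open circles for 1448823_at, joined by a line. The circles lie far apart on the 5 Jnk1 shRNA arrays, in the opposite order on the 4 GFP shRNA arrays and nearly together on the 5 vehicle arrays.

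Cxcl13, which draws B cells through the receptor Cxcr5, was weak. Probe set 1448859_at had 64.5, 49.4, 59.1, 46.0 and 45.3 with Jnk1 shRNA, 45.6, 43.6, 55.7 and 67.6 with GFP shRNA, and 117, 79.6, 61.2, 162 and 61.8 with vehicle. It was near background on GFP array 2 only. Vehicle arrays 1, 2 and 4 lay above all virus arrays, while arrays 3 and 5 lay among them. It fell by 0.77 ± 0.24 with Jnk1 shRNA against vehicle, or 1.71-fold lower (limma, adjusted p = 0.0179), a call lost with the spike-in level in the fit (-0.77, adjusted p = 0.202). With GFP shRNA against vehicle the difference was -0.77 ± 0.25 and did not pass (limma, adjusted p = 0.139). Between Jnk1 shRNA and GFP shRNA it was 0.00 ± 0.25, with an interval of -0.54 to 0.54 (limma, adjusted p = 0.998).

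The other Cxcl13 probe set, 1417851_at, failed the filter on low signal and was not tested. It had 11.9, 5.50, 11.6, 2.01 and 2.01 with Jnk1 shRNA, 14.2, 35.6, 16.2 and 4.93 with GFP shRNA, and 110, 33.1, 49.4, 102 and 8.85 with vehicle. Only vehicle arrays 1, 3 and 4 rose above their background bound. A fit with no filter gave -3.14 for Jnk1 shRNA over vehicle (limma, adjusted p = 0.00735), where the Jnk1 shRNA level is a background reading and the fold is not a measured size. Cxcr5 was near background on all arrays, and so were 4 of 7 B and plasma cell markers on the array. Of these markers 2 were tested and 1 fell with Jnk1 shRNA against GFP shRNA, where 15.8% of all tested probe sets fell.

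Cxcl1 and Ccl2 recruit neutrophils through Cxcr2 and monocytes through Ccr2, and both are known targets of NF-kB. The promoter of Cxcl1 is shown for its NF-kB site, the 100 bases before the start on GRCm38.p6, with the match in capitals. It reads on both strands, with overlapping matches that begin 71 and 70 bases before the start.
Cxcl1 (chr5:90891145-90891244, plus strand): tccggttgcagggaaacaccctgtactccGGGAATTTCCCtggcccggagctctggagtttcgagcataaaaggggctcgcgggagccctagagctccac
Cxcl1 had 1258, 1941, 991, 2025 and 1651 with Jnk1 shRNA, 1976, 1364, 698 and 935 with GFP shRNA, and 1177, 184, 3382, 2230 and 2019 with vehicle. The groups overlapped throughout, and vehicle livers spanned the whole range of the series, from array 2 as the lowest to array 3 as the highest. No comparison passed: 0.40 ± 0.61 for Jnk1 shRNA over GFP shRNA, 0.26 ± 0.57 for Jnk1 shRNA over vehicle and -0.14 ± 0.61 for GFP shRNA over vehicle (limma, adjusted p = 0.648, 0.757 and 0.946). The 95% intervals were -0.89 to 1.68, -0.95 to 1.47 and -1.43 to 1.14, so this spread leaves both a rise and a fall possible.

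Ccl2 was close to background. It had 42.9, 32.8, 48.4, 78.8 and 66.8 with Jnk1 shRNA, 57.1, 31.1, 40.6 and 54.7 with GFP shRNA, and 28.6, 11.0, 166, 88.5 and 106 with vehicle. GFP arrays 2 and 3 and vehicle arrays 1 and 2 lay under their bound, and the highest 3 values were also in vehicle livers. None of the comparisons passed, at 0.21 ± 0.58, -0.09 ± 0.55 and -0.29 ± 0.58 (limma, adjusted p = 0.816, 0.919 and 0.865). Both Cxcr2 and Ccr2 lay under the filter and were near background on all arrays.

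Cxcl1, Cxcl10 and Ccl2 were each lowest on vehicle array 2 and, among vehicle livers, highest on vehicle array 3. Across the 14 arrays, after group means were taken out, the log2 values of Cxcl1 and Ccl2 gave a Pearson r of 0.843, those of Cxcl9 and Cxcl10 0.687 and those of Cxcl1 and Cxcl10 0.659. These describe the same arrays and carry no test. In the paired plot vehicle array 2 lies apart for the first pair and GFP array 2 for the second. How much of each r rests on these arrays was not tested.

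**Figure D4:**
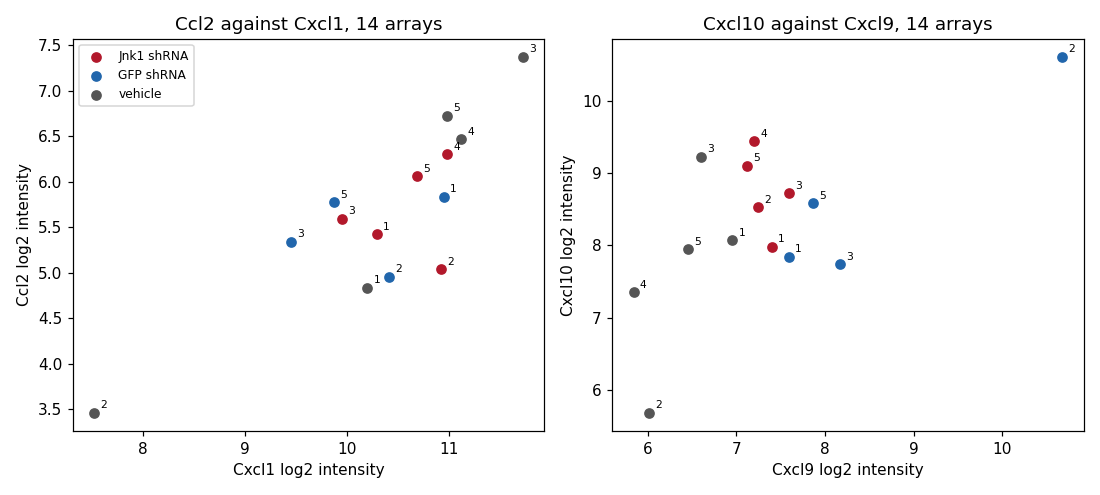
Log2 intensity of Ccl2 against Cxcl1 (left) and of Cxcl10 against Cxcl9 (right) on the 14 arrays, numbered by replicate and coloured by group (Jnk1 shRNA red, GFP shRNA blue, vehicle grey). Vehicle array 2 lies alone at the lower left of the Ccl2 plot and GFP array 2 alone at the upper right of the Cxcl10 plot.

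Ccl6 and Ccl9 are mouse CC chemokines made largely by macrophages and other myeloid cells, and both bind Ccr1. Their genes are neighbours on chromosome 11 with 0 protein-coding genes starting between them. Ccl6 was higher in virus-treated livers on probe set 1417266_at, which had 137, 127, 105, 118 and 84.3 with Jnk1 shRNA, 160, 156, 132 and 120 with GFP shRNA, and 91.3, 87.7, 90.9, 59.7 and 71.2 with vehicle. All GFP shRNA arrays were above all vehicle arrays, and of the Jnk1 shRNA arrays only array 5 lay among the vehicle values.

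On this probe set Ccl6 rose by 0.83 ± 0.16, or 1.78-fold, with GFP shRNA over vehicle (limma, adjusted p = 0.00942). It rose by 0.51 ± 0.15, or 1.42-fold, with Jnk1 shRNA over vehicle (limma, adjusted p = 0.0144), which did not pass with the spike-in level in the fit (0.19, adjusted p = 0.621). Between Jnk1 shRNA and GFP shRNA it was -0.32 ± 0.16 (limma, adjusted p = 0.14).

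The weaker Ccl6 probe set, 1420249_s_at, had 49.8, 63.4, 52.4, 67.6 and 49.98 with Jnk1 shRNA, 75.5, 135, 59.5 and 79.8 with GFP shRNA, and 66.2, 50.5, 50.6, 41.8 and 41.9 with vehicle. Only vehicle array 4 was near background. GFP array 2 was again the highest, and all groups overlapped. It fell by 0.57 ± 0.21 with Jnk1 shRNA against GFP shRNA (limma, adjusted p = 0.0471), a call that any of 11 arrays could end by its absence. It held without vehicle array 1, GFP array 3 or Jnk1 array 4. Without GFP array 2 the difference was -0.34 (adjusted p = 0.167), and with the other 10 left out in turn it lay between -0.62 and -0.52. The call was also lost with the replicate block (-0.57, limma, adjusted p = 0.0587), under median scaling (-0.48, adjusted p = 0.0586), with array weights (-0.42, adjusted p = 0.0694) and in a fit that holds the spike-in level (-0.55, adjusted p = 0.306). With no filter and with 2-group fits the same difference had an adjusted p of 0.086 and 0.0592 in limma. Over vehicle it gave 0.18 ± 0.20 with Jnk1 shRNA and 0.75 ± 0.21 with GFP shRNA (limma, adjusted p = 0.499 and 0.0753), and the second passed without vehicle array 1 (0.86, adjusted p = 0.04) or GFP array 3 (0.92, adjusted p = 0.0374).

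Ccl9 was lower in Jnk1 shRNA livers on both probe sets. Its promoter held an NF-kB match on the reverse strand, 35 bases before the start, whose part in the change was not tested. The match is shown in capitals within the 100 bases before the start on GRCm38.p6.
Ccl9 (chr11:83578637-83578736, minus strand): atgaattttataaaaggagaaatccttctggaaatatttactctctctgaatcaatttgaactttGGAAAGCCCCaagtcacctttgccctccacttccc
Probe set 1448898_at had 153, 153, 160, 149 and 156 with Jnk1 shRNA, 204, 212, 199 and 257 with GFP shRNA, and 189, 268, 165, 202 and 220 with vehicle. Jnk1 shRNA arrays lay in a narrow band under all others. It fell by 0.49 ± 0.12 against GFP shRNA and by 0.42 ± 0.11 against vehicle, or 1.41-fold and 1.34-fold lower (limma, adjusted p = 0.00521 and 0.00848).

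Probe set 1417936_at of Ccl9 had 341, 284, 277, 298 and 285 with Jnk1 shRNA, 358, 428, 347 and 411 with GFP shRNA, and 368, 451, 301, 364 and 394 with vehicle. Jnk1 shRNA arrays were all under the GFP shRNA arrays, and array 1 lay above the lowest vehicle array. It fell by 0.38 ± 0.11 against GFP shRNA, or 1.30-fold lower, and by 0.33 ± 0.10 against vehicle (limma, adjusted p = 0.0145 and 0.0183). Without vehicle array 2 the difference against vehicle was -0.26 and did not pass (limma, adjusted p = 0.0511). GFP shRNA over vehicle gave 0.05 and 0.07 on the 2 probe sets of Ccl9 (limma, adjusted p = 0.891 and 0.823).

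The size of the Ccl9 change depended on how arrays were scaled. With arrays brought to the same median instead of quantile normalization, the differences between Jnk1 shRNA and GFP shRNA were -0.16 on 1417936_at and -0.31 on 1448898_at, and neither passed (limma, adjusted p = 0.316 and 0.0923). A fit that holds the spike-in level gave -0.47 and -0.41 (limma, adjusted p = 0.0758 and 0.167). Against vehicle that fit gave -0.43 and -0.34 (adjusted p = 0.0865 and 0.234), and median scaling gave -0.25 on 1417936_at (adjusted p = 0.0876), none of which passed. Median scaling also moved the balance of all calls for Jnk1 shRNA over GFP shRNA, of which 72.3% were then higher with Jnk1 shRNA, against 52.3% under quantile normalization.

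Markers of macrophages and Kupffer cells, the resident liver macrophages, moved as well. Of 13 tested from a list of 16, 9 fell and 0 rose with Jnk1 shRNA against GFP shRNA, 6 fell and 0 rose with Jnk1 shRNA against vehicle, and 2 rose and 2 fell with GFP shRNA against vehicle. Among all tested probe sets 15.8%, 18.7% and 0.530% fell in these comparisons, and 17.3%, 18.9% and 2.05% rose. The summed intensity of the 15 on the array was 3529 to 4342 with Jnk1 shRNA, 5900 to 6755 with GFP shRNA and 3612 to 6270 with vehicle, and none of the 15 was near background on all arrays. Marco and Cd163 lay under the filter, so the counts leave them out. Marco averaged 5.02 with Jnk1 shRNA, 4.47 with GFP shRNA and 54.2 with vehicle, and Cd163 averaged 6.58, 6.78 and 55.5. Their means in both virus groups lie under the background bound of every array. Stellate cell markers summed to 2140 to 2401 with Jnk1 shRNA, 3014 to 3501 with GFP shRNA and 2863 to 3118 with vehicle, and endothelial markers to 1087 to 1302, 1483 to 1833 and 1635 to 1745. T and NK cell markers summed to 386 to 416 with Jnk1 shRNA, 263 to 401 with GFP shRNA and 213 to 267 with vehicle, with Cd2, Cd3d, Cd8a, Cd8b1 and Ncr1 near background on all arrays. The part of these shifts in the differences of Ccl6, Ccl9, Cxcl9 and Cxcl12 was not tested.

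Other chemokine ligands mostly lay too low to test. Of 33, 26 were on the array, 10 were tested and 13 were near background on all arrays. With Jnk1 shRNA against GFP shRNA 1 of the 10 fell, against vehicle 2 rose and 2 fell, and with GFP shRNA against vehicle 0 of the 10 passed. Among all tested probe sets 33.1%, 37.6% and 2.58% were called in these comparisons, so the ligand counts are near or under that share. With the lowest 60% of probe sets left out in place of 40%, the counts against GFP shRNA and against vehicle were 0. Against GFP shRNA the count was also 0 under median scaling, with no filter and with the replicate block, and 2 with the pseudocount, array weights or 2-group fits, or without vehicle array 2. Cxcl16, a membrane-bound ligand made by macrophages and endothelium, averaged 54.5 with Jnk1 shRNA, 76.2 with GFP shRNA and 78.1 with vehicle and fell by 0.48 ± 0.17 and 0.52 ± 0.16 against them (limma, adjusted p = 0.038 and 0.017). The count against GFP shRNA was 0 without GFP array 1 or without Jnk1 array 2, 3, 4 or 5. Ccl5, which T cells and NK cells release, averaged 70.5 with Jnk1 shRNA and 22.4 with vehicle and rose by 1.66 ± 0.34 (limma, adjusted p = 0.00112). That vehicle mean lies under the background bound of every vehicle array, so the size is set against a background reading, and the probe set passed the filter through the virus groups. Pf4, the platelet chemokine, rose by 0.75 ± 0.21 against vehicle (limma, adjusted p = 0.0109), and Ccl27a, which guides T cells to skin, fell by 0.49 ± 0.16 (adjusted p = 0.0212).

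Of 21 chemokine receptors on the array, 5 were tested and 14 were near background on all arrays, among them Ccr1, the receptor of Ccl6 and Ccl9. With Jnk1 shRNA against GFP shRNA 1 of the 5 fell, where 15.8% of all tested probe sets fell and 33.1% were called. In the other comparisons 0 passed. The receptor that fell was Ackr1, which binds chemokines without signalling. Ackr1 averaged 31.4 with Jnk1 shRNA and 50.7 with GFP shRNA and fell by 0.69 ± 0.21 (limma, adjusted p = 0.0208). Its level with Jnk1 shRNA is within the range of the background bounds of those arrays. The count was 0 without GFP array 2, Jnk1 array 1 or Jnk1 array 3, and also with the lowest 60% left out, with array weights and with the spike-in level in the fit. Against vehicle, 1 receptor passed for Jnk1 shRNA without vehicle array 2, Jnk1 array 4 or Jnk1 array 5, and under 4 other alternatives.

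Genes that switch chemokines on, a list of 28 cytokines, receptors and transcription factors of which 22 were tested, gave 4 that fell and 0 that rose with Jnk1 shRNA against GFP shRNA. Among all tested probe sets 15.8% fell and 33.1% were called in that comparison, so 4 of 22 is near the background for falls and under it for all calls. These were Jak1, a kinase of interferon receptors (-0.70 ± 0.08), the interleukin-1 receptor Il1r1 (-1.19 ± 0.24), its adaptor Myd88 (-0.59 ± 0.12) and the myeloid transcription factor Irf8 (-0.99 ± 0.31), at adjusted p of 8.67e-06, 0.00131, 0.00179 and 0.0229 in limma. Against vehicle 4 fell, namely Jak1, Il1b, Il1r1 and Myd88, and Tlr3, a sensor of double-stranded RNA, rose by 1.67 ± 0.50 (limma, adjusted p = 0.0153). Together these are 5 of 22, which is under the 37.6% of all tested probe sets called in that comparison. The vehicle mean of Tlr3, 16.9, lies under every vehicle background bound, so this size is set against a background reading. Il1b, a cytokine that induces Cxcl1 and Ccl2, fell by 0.95 ± 0.21 (limma, adjusted p = 0.00163). In place of 5, the count against vehicle was 8 without vehicle array 2, 3 with the lowest 60% left out and 2 with the spike-in level in the fit, which also gave 2 in place of 4 against GFP shRNA. With GFP shRNA against vehicle 0 of 22 passed, or 2 without vehicle array 2 and 1 with array weights. Tnf was near background on all arrays.

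**Figure D5:**
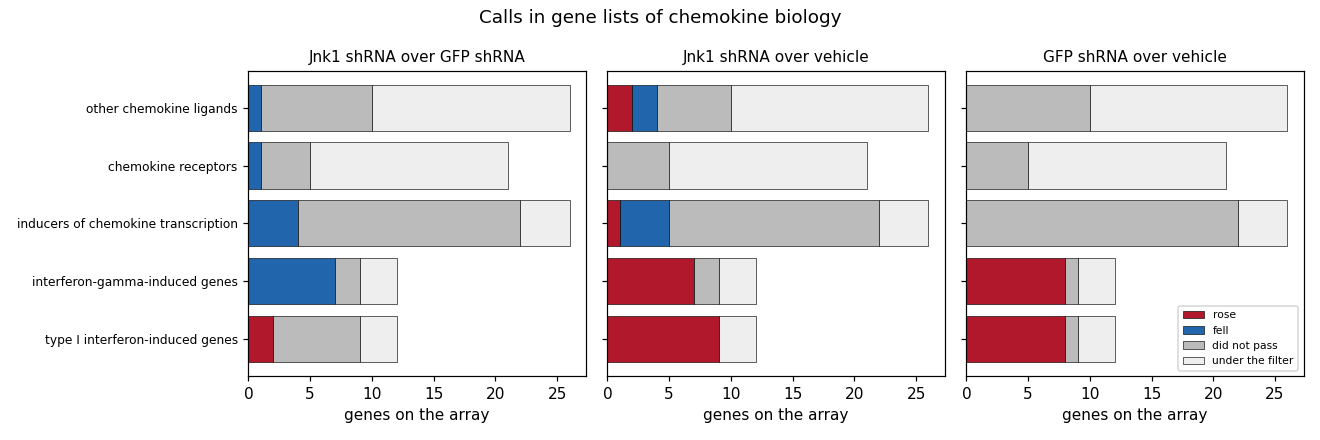
Number of genes on the array in 5 lists around the chemokines that rose (red), fell (blue), did not pass (grey) or lay under the filter (pale) in each comparison. Interferon-gamma-induced genes changed in opposite directions for Jnk1 shRNA over GFP shRNA (7 of 9 tested fell) and Jnk1 shRNA over vehicle (7 of 9 rose).

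For each chemokine, the 3 genes whose log2 intensity followed it most closely over the 14 arrays were taken from 8019 other tested genes, and r is given first as measured and then after group means were taken out. For Cxcl9 these were Samhd1 (0.985 and 0.978), Cd274 (0.975 and 0.939) and Gbp2 (0.967 and 0.957). For Cxcl10 they were Ch25h (0.886 and 0.871), Mitd1 (0.821 and 0.786) and Gsap (0.82 and 0.772). Those of the CXCR3 ligands kept most of their r within groups, and so did those of Cxcl1 and Ccl2, given next. Cxcl9 and Cxcl10 were both highest on GFP array 2 (1638 and 1567), far above the rest of that group. Taking out group means leaves that distance in place. How much of these r rests on that array was not tested. For Cxcl1 they were Pim1 (0.883 and 0.93), Anxa1 (0.845 and 0.871) and Icam1 (0.837 and 0.832), and for Ccl2 they were Csnk2a1 (0.832 and 0.858), Hamp2 (0.826 and 0.856) and again Icam1 (0.791 and 0.802). Icam1 encodes an adhesion molecule to which white blood cells attach on vessel walls.

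For probe set 1417574_at of Cxcl12 the closest genes were Exosc5 (0.952 and 0.766), Tmem60 (0.937 and 0.676) and Slc25a13 (0.919 and 0.489), whose likeness came in larger part from the group means. For Ccl6 they were Slc44a2 (0.908 and 0.766), Cybb (0.907 and 0.67) and Fcer1g (0.892 and 0.612). Cybb encodes a subunit of the phagocyte oxidase and Fcer1g the signalling chain of Fc receptors of myeloid cells. For Ccl9 they were Ep400 (0.909 and 0.85), Casq1 (0.901 and 0.765) and Tmem80 (0.895 and 0.803), and for Cxcl13 Fzd8 (0.8 and 0.694), Card10 (0.796 and 0.704) and Foxa1 (0.793 and 0.598). These values rank genes on shared arrays and carry no test.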

How the data were processed

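Liver tissue was pulverized for total RNA and the label was biotin, per the labels' protocols. The authors deposited linear intensities per probe set, with a trimmed mean of 150.05 to 150.06 on every array. No source used here names their software, detection calls or background correction. Array medians spanned 0.48 on the log2 scale, so arrays were quantile normalized, values were floored at the 5th percentile (2.01), and log2 was taken. The 64 control probe sets and the 40% of the other 22626 with the lowest mean (under 28.4) were left out, which left 13576. Symbols are those of the 2016 platform annotation.

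Differences were fitted with limma 3.58.1 in R 4.3.3 as 3 group means over all 14 arrays, with an intensity trend and Benjamini-Hochberg adjustment over the 13576. Each gene of a list was represented by its probe set of highest mean. The number of arrays limits the precision.

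The 8 chemokines, the gene lists and the tests were chosen with earlier results of these data known, and the lists come from textbook knowledge. Named from the lists were genes that passed, by smallest p, up to 8 per list for ligands, receptors and inducers and up to 3 for the others. The labels do not say whether shared replicate numbers pair the samples, and the main fit did not pair them. Of 13 same-numbered pairs of arrays, 2 had deviations from the group means that correlated above 0.1. The range was -0.235 to 0.121, against -0.154 to 0.304 in 52 differently numbered pairs. This describes the arrays and cannot exclude a pairing. Promoter sequences came from RefSeq on GRCm38.p6, which held 7 of the 8 genes. Ccl2 was not among them. Alternatives were the values as deposited, median scaling, other filters, a pseudocount of 16, no trend, 2-group fits, array weights, the replicate block, 1 probe set per gene, each array left out, and a covariate for the spike-in level. The last is confounded with the Jnk1 shRNA group.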

Additional observations from a re-analysis of the deposited data

Results flagged for a closer look

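In groups of 4 or 5 arrays, the gap of the most extreme array to its nearest neighbour was divided by the range of the group, a test that chance passes in about 1 of 20 groups. Of 39 groups, 1 was marked on the log2 scale and 3 on the linear scale. GFP array 2 was far from the other 3 GFP arrays for Cxcl9 (gap of 0.935 of the range, at an intensity of 1638) and for Cxcl10 (0.875, at 1567), on the linear scale and not on the log2 scale. For Mapk8 vehicle array 3 was the lowest of its group (149), with a gap of 0.962 on the log2 scale and 0.958 on the linear scale, and it was still above all Jnk1 shRNA arrays.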

How the results depend on the processing

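Of 807 differences of single chemokine probe sets under the alternatives, 729 kept direction and side of the threshold, 39 lost and 10 gained a call, and 29 changed sign, all of them differences not called. The changes of sign were Ccl9 with GFP shRNA over vehicle under median scaling (-0.091 and -0.035), Cxcl1 with GFP shRNA over vehicle under the replicate block (0.013), and Cxcl13 1448859_at with Jnk1 shRNA over GFP shRNA as deposited (-0.16), with the pseudocount (-0.00047), array weights (-0.15) and the replicate block (-0.083). Over left-out arrays, Ccl2 ran from -0.87 to 0.11 for GFP shRNA and from -0.67 to 0.31 for Jnk1 shRNA over vehicle. Cxcl1 ran from -0.83 to 0.21 and from -0.44 to 0.61 in the same comparisons. For GFP shRNA over vehicle the Ccl9 probe sets ran from -0.032 to 0.11 and from -0.0064 to 0.17. For Jnk1 shRNA over GFP shRNA Cxcl10 ran from -0.26 to 0.70 and Cxcl13 from -0.089 to 0.12.

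The number of chemokine probe sets called for Jnk1 shRNA over GFP shRNA, 5, was 2 under median scaling, 3 each with no filter, 2-group fits, 1 probe set per gene and the replicate block, 1 with the spike-in level, and 3 to 5 with an array left out. Over vehicle it was 6, against 2 with the spike-in level and 5 to 7 with an array left out. For GFP shRNA over vehicle it was 3, and 2 to 4 over all alternatives. Over all probe sets, 4497 calls for Jnk1 shRNA over GFP shRNA became 2790 with 1 probe set per gene, which tests fewer features, 2171 with the spike-in level and 3841 to 4590 with an array left out. Over vehicle 5099 became 3128, 2858 and 4575 to 5501. For GFP shRNA over vehicle 350 became 209 with 2-group fits and 198 to 383 with an array left out. Under the replicate block the other 2 comparisons kept their chemokine counts of 6 and 3. Other causes were not tested.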

Other observations

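Markers of white blood cells, the targets and in part the makers of chemokines, did not all move alike. Clec4f and Vsig4, known from Kupffer cells, were lower in both virus groups: Clec4f averaged 80.96 with Jnk1 shRNA, 108 with GFP shRNA and 428 with vehicle, and fell by 2.40 ± 0.13 and 1.98 ± 0.14 against vehicle (limma, adjusted p = 1.88e-09 and 6.34e-07). Vsig4 averaged 41.4, 81.5 and 340.2 in the same order. Cd5l, a secreted protein also known from Kupffer cells, went the other way with GFP shRNA over vehicle, where it rose by 0.86 ± 0.11 (limma, adjusted p = 0.000328). It fell by 0.82 ± 0.11 with Jnk1 shRNA against GFP shRNA and gave 0.03 ± 0.10 with Jnk1 shRNA over vehicle (limma, adjusted p = 3.49e-05 and 0.836). Mpeg1, a pore-forming protein of macrophages in general, rose by 1.56 ± 0.16 with GFP shRNA over vehicle and fell by 1.30 ± 0.16 with Jnk1 shRNA against GFP shRNA (limma, adjusted p = 2.81e-05 and 1.68e-05).

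Of 5 tested dendritic cell and MHC class II markers, 4 fell with Jnk1 shRNA against GFP shRNA, among them H2-Aa, an MHC class II chain, by 1.71 ± 0.17 (limma, adjusted p = 2.11e-06). With Jnk1 shRNA against vehicle 3 of these 5 fell and 1, Itgax, rose. Among all tested probe sets 15.8% fell against GFP shRNA and 18.7% against vehicle. The vehicle mean of Itgax, 26.9, lies under every vehicle background bound, so Itgax passed the filter through the virus groups and its rise is no support. Of 5 tested T and NK cell markers, 4, among them Nkg7, Gzma and Gzmb, had a higher level with Jnk1 shRNA than with vehicle. Their vehicle means, 12.9 to 21.9, lie under every vehicle background bound, so they passed the filter through the virus groups and their count is no support. With the lowest 60% of probe sets left out, 0 of the list were called. Nkg7, of the granules of cytotoxic cells, averaged 58.0 with Jnk1 shRNA, 49.1 with GFP shRNA and 12.9 with vehicle. The vehicle value is a background reading, so no size over vehicle is given. Of 6 tested monocyte and neutrophil markers, 1 rose with Jnk1 shRNA over vehicle and 2 rose with GFP shRNA over vehicle, and 0 fell. Their medians were -0.09 and 0.12, and among all tested probe sets 18.9% and 2.05% rose. Plac8, which was called in both, rose by 1.11 ± 0.10 with Jnk1 shRNA and by 1.24 ± 0.11 with GFP shRNA over vehicle (limma, adjusted p = 4.21e-07 and 4.78e-06). Alas2, the heme synthesis enzyme of red cell precursors, fell by 2.02 ± 0.14 with Jnk1 shRNA against GFP shRNA (limma, adjusted p = 7.96e-08).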
